A study of Trichechus manatus latirostris with 11 samples.

Results

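The MAP kinase phosphatases are the dual specificity phosphatases that switch MAP kinases off. Of the 10 genes of this family that were listed (DUSP1, DUSP2, DUSP4, DUSP5, DUSP6, DUSP7, DUSP8, DUSP9, DUSP10 and DUSP16), 7 had a row in the deposited gene expression table of the Florida manatee (Trichechus manatus latirostris), with 8 transcript records among 15298. A record belonged to the family when its identifier, without the version number, carried one of these 10 symbols in the RefSeq gene table of the manatee assembly. DUSP2, DUSP8 and DUSP9 had no such row and were not analysed here. All 7 genes had a mean normalized count of at least 10 over all libraries, so a filter on low means removed none of them.

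RNA of buffy coats, the white cell layer of centrifuged blood, was sequenced from 4 adult manatees treated at Lowry Park Zoo for red tide illness and from 7 adult control manatees. The controls were 2 animals of the Brevard health assessments, 4 animals of the Crystal River assessments and 1 animal of Lowry Park Zoo that was recovering from pneumonia. The study compared the groups to find genes whose expression differed after a red tide, a bloom of an alga that makes brevetoxins. Ribosomal and globin RNA was depleted from every sample. Sampling place, sampling date, treatment and illness differed between the groups and cannot be told apart, although 1 control was also a sick zoo animal. All red tide samples were collected earlier than the control samples. Within the red tide group, some animals were sampled on arrival for treatment and the others after a week of treatment. The paper's methods describe an additional form of storage, freezing, for the red tide samples.

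The table gives the mean normalized count (reads divided by a size factor, which corrects for sequencing depth) over 4 libraries, over 7 libraries and over all 11. The columns do not name their groups. By the number of libraries, the 4-library mean would be that of the red tide group and the 7-library mean that of the controls, but the direction in which the study describes its fold changes takes the 7-library mean as the red tide side. This conflict was not resolved here, so values are given by number of libraries and no difference is assigned to red tide or control animals. A log2 ratio is taken as log2 of the first of these means divided by the second, so that a positive value means a higher 4-library mean. The means carry no spread between animals. For this reason a gene was called higher in a group at a ratio of 2 or more, which is a fold threshold and not a test. Levels were compared between groups for the same gene and not between genes, because transcript lengths were not available.

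MAP kinases are activated by phosphorylation of a threonine and a tyrosine, and the MAP kinase phosphatases remove both phosphates. Most of them are transcribed in response to the MAP kinase activity that they end, which makes them feedback inhibitors. DUSP1, DUSP2, DUSP4 and DUSP5 are nuclear and inducible, DUSP6, DUSP7 and DUSP9 are cytoplasmic and act mainly on ERK, and DUSP8, DUSP10 and DUSP16 act mainly on the stress-activated kinases p38 and JNK. In leukocytes these enzymes are known for limiting the signals that run from pathogen and cytokine receptors to inflammatory genes.

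Of the 7 genes, 3 (DUSP5, DUSP4 and DUSP10) were 2-fold or more higher in the 4-library mean and 0 were 2-fold or more higher in the 7-library mean. Over all rows of the table, 23.9% were 2-fold or more higher in the 4-library mean and 10.4% in the 7-library mean. Among the 10225 rows with a mean over all libraries of at least 10, where all 7 genes belong, these shares were 12.3% and 9.59%. The median log2 ratio of the 7 genes was 0.98, beside 0.14 over all rows and -0.01 over rows with a mean of at least 10. The 3 genes past 2-fold were also past 3-fold, a ratio reached by 5.72% of rows with a mean of at least 10 in this direction and by 2.84% in the other. DUSP1, DUSP6 and DUSP16 lay between 1.5-fold and 2-fold, so that 6 of 7 genes were 1.5-fold or more higher in the 4-library mean, against 22.8% of rows with a mean of at least 10, and 0 were lower by as much, against 21.6%. DUSP7 had the lower 4-library mean.

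**Figure D1:**
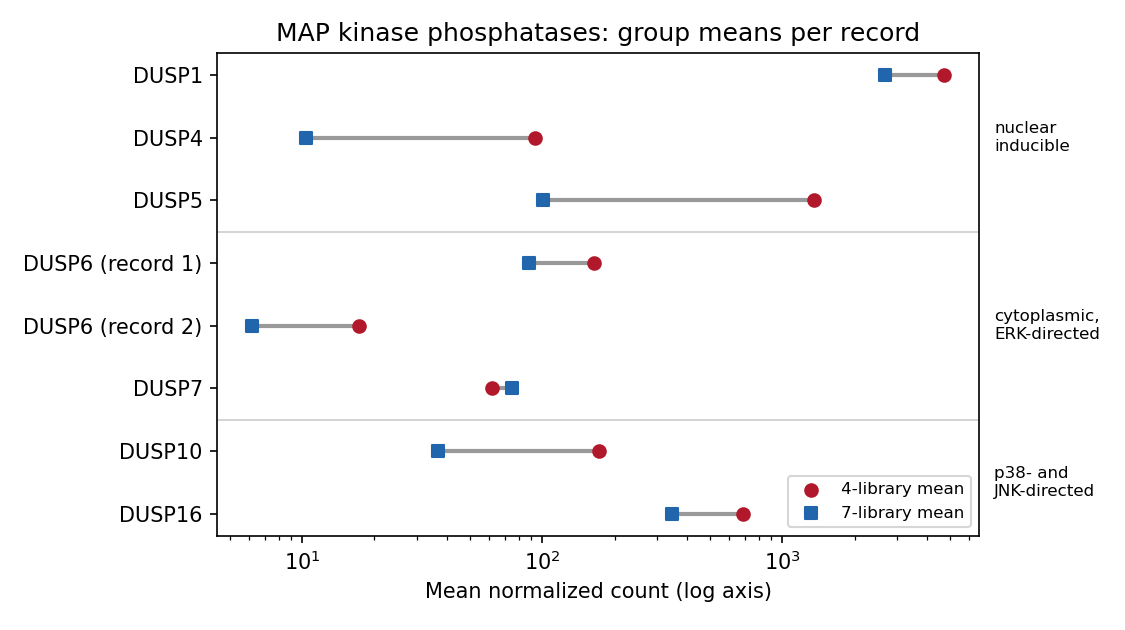
Mean normalized count (log axis) of the 8 records of the 7 MAP kinase phosphatases in the 4-library group (red circles) and the 7-library group (blue squares), ordered by role, with no error bars because the table holds no spread. The distance between the symbols is widest for DUSP5, DUSP4 and DUSP10, and DUSP7 is the 1 gene whose 4-library mean lies to the left.

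The nuclear inducible phosphatases had the highest ratio of the family in DUSP5, an inducible nuclear phosphatase that acts on ERK and holds it in the nucleus. DUSP5 (XM_004374949.1) had a mean normalized count of 1357 in the 4 libraries and of 101 in the 7 libraries, a ratio of 13.4 and a log2 ratio of 3.75. Of the 10225 rows with a mean of at least 10, 130 (1.27%) had a log2 ratio at least as high.

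DUSP4, a nuclear phosphatase of ERK, JNK and p38, followed. DUSP4 (XM_004383375.1) had a 4-library mean of 93.4 and a 7-library mean of 10.4, a ratio of 8.98 and a log2 ratio of 3.17. A log2 ratio at least as high was found in 174 rows (1.70%) with a mean of at least 10.

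DUSP1, the early response phosphatase that acts on p38, JNK and ERK and is a known target of glucocorticoids, differed least within this role. DUSP1 (XM_004371192.1) had a 4-library mean of 4730 and a 7-library mean of 2667, a ratio of 1.77 and a log2 ratio of 0.83. Its difference of 2063 normalized counts was the largest of the family in counts, while its ratio was under 2-fold, and 15.5% of rows with a mean of at least 10 had a log2 ratio at least as high. The 3 nuclear genes thus all had a higher 4-library mean, with log2 ratios from 0.83 to 3.75 and 2 of 3 past 2-fold.

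Of the cytoplasmic phosphatases that act on ERK, DUSP6, a feedback inhibitor of growth factor signalling, had 2 transcript records. The first (XM_004384188.1) had a 4-library mean of 165 and a 7-library mean of 88.5, a log2 ratio of 0.90. The second (XM_004384189.1) had means of 17.3 and 6.19, a log2 ratio of 1.48. Transcripts of a single gene share sequence, so the way uniquely mapped reads were divided between the records is uncertain. With the records averaged, DUSP6 had a 4-library mean of 91.0, a 7-library mean of 47.3 and a log2 ratio of 0.94, under 2-fold.

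DUSP7, the second cytoplasmic phosphatase with a row, was the exception of the family. DUSP7 (XM_004368592.1) had a 4-library mean of 61.7 and a 7-library mean of 74.6, a log2 ratio of -0.27 that 64.2% of rows with a mean of at least 10 reached or exceeded. None of the cytoplasmic genes was past 2-fold in either direction when records were averaged.

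The phosphatases directed at p38 and JNK both had the higher 4-library mean, and they differed from each other in the size of the ratio. DUSP10 (XM_004375914.1), which acts on JNK and p38 and limits innate immune responses, had means of 173 and 36.8, a ratio of 4.70 and a log2 ratio of 2.23 that 3.11% of rows with a mean of at least 10 reached or exceeded. DUSP16 (XM_004387322.1), which acts mainly on JNK, had means of 687 and 348, a ratio of 1.98 and a log2 ratio of 0.98, just under the 2-fold threshold. In the plot of the family among all rows, DUSP10 stands apart from the main body of the distribution, whereas DUSP16 lies on its upper flank beside DUSP1 and DUSP6.

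**Figure D2:**
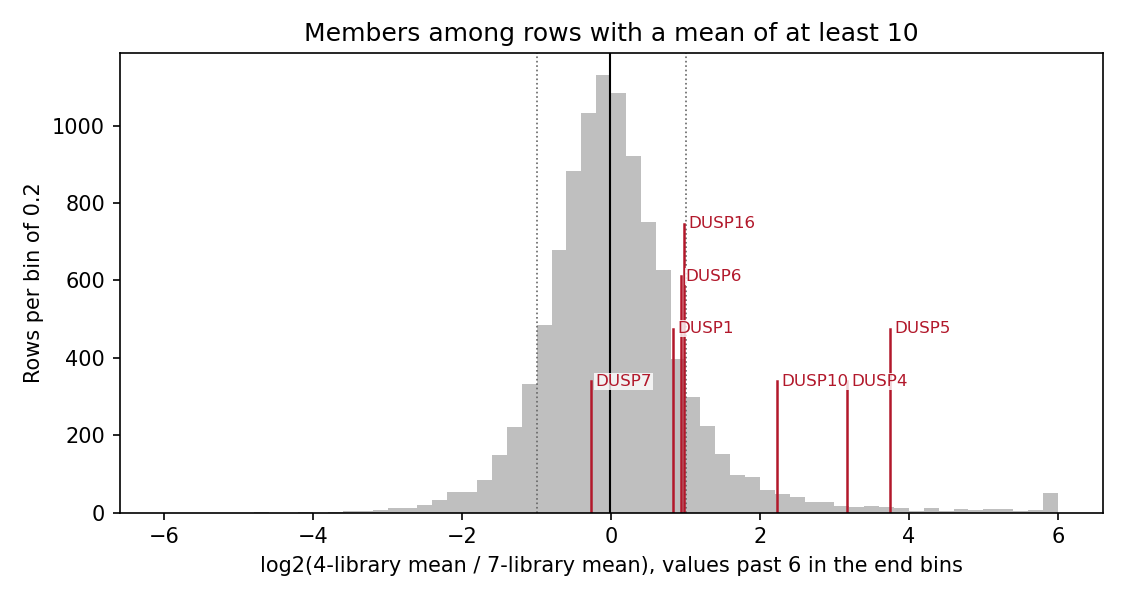
Distribution of the log2 ratio (4-library over 7-library mean) in the 10225 rows with a mean over all libraries of at least 10 (grey bars, number of rows per bin, values past 6 placed in the end bins), with the 7 MAP kinase phosphatases as red lines whose heights only separate the names. The solid black line is the median of these rows (-0.01) and the dotted lines mark 2-fold; DUSP10, DUSP4 and DUSP5 lie to the right of 2-fold, at 2.23, 3.17 and 3.75.

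Because whole reads, each divided by its library's size factor, add up to a group mean, the reads of single libraries could be recovered where that mean was low. Libraries are named here by their size factor, 1.56, 1.03, 0.620 and 0.372 in the 4-library group and 0.702 to 1.73 in the 7-library group. They were not linked to animals or to sample labels, so a relation of single libraries to time in treatment was not tested. For DUSP4, DUSP7 and the second record of DUSP6 a single combination of whole reads gave the 4-library mean. For DUSP1, DUSP5, DUSP10, DUSP16 and the first record of DUSP6 no single combination was available, so it is unknown whether their ratios were carried by several libraries or by 1.

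DUSP4 had 84, 66, 120 and 23 reads in the libraries with size factors 1.56, 1.03, 0.620 and 0.372, which are normalized counts of 53.9, 64.3, 193 and 61.9 (mean 93.4 ± 66.9, SD, n = 4). The library with the size factor 0.620 was the highest and held 51.8% of the summed normalized counts of the group, while the other 3 lay close together. Without that library the log2 ratio of DUSP4 was 2.53, and without any other library of the 4 it was 3.31 to 3.36. The library with the size factor 0.620 was the highest of the 4 in 29.4% of the 5487 rows with a 4-library mean of 10 to 100 and a single combination.

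The 7-library mean of DUSP4 fitted 70 combinations of 75 to 105 reads in all. In none of them did a library of the 7 exceed a normalized count of 52.5, and the highest of the 7 lay as low as 14.5 in others. Each of the 4 libraries therefore lay above each of the 7 in every combination, the lowest of the 4 being 53.9. The two-sided exact permutation test over all 330 assignments of 4 of the 11 libraries gave p = 0.00606 for DUSP4 in each combination, the smallest value that this design allows. Adjusted by the Benjamini-Hochberg method over the 5586 rows with recoverable reads (a 4-library mean up to 100 and a 7-library mean up to 11), the exact permutation p was 0.23. An unadjusted exact permutation p of 0.05 or less was found in 769 rows, while the adjusted p was not under 0.05 for any of the 5586. No row can have a smaller unadjusted p than DUSP4, so 0.23 was also the lowest adjusted p among these rows. It cannot be read as absence of a difference. Of these rows, 2.45% had each of the 4 libraries above each of the 7 in every combination, and 8 rows had the reverse. The limits admit higher means in the 4 libraries than in the 7 and were set after the values of DUSP4 had been seen.

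The second record of DUSP6 had 73, 13, 6 and 0 reads in the libraries with size factors 1.56, 1.03, 0.620 and 0.372, or normalized counts of 46.8, 12.7, 9.67 and 0 (mean 17.3 ± 20.4, SD, n = 4). A single library, that with the size factor 1.56, held 67.7% of the summed normalized counts. Without it the log2 ratio of this record fell from 1.48 to 0.27, and without any other library of the 4 it was 1.61 to 1.90. The 7-library mean fitted 2 combinations, of 52 and of 55 reads in all. In the first the 7 libraries ranged from 0 to 17.2 normalized counts and in the second from 0 to 20.8. The groups overlapped in both, and the exact permutation test gave p = 0.30 at most (adjusted p = 0.66), so the ratio of this record was not distinguishable from the spread between libraries.

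DUSP7 had 127, 45, 47 and 17 reads in the same order, or normalized counts of 81.5, 43.8, 75.8 and 45.7 (mean 61.7 ± 19.7, SD, n = 4). The 7-library mean of 74.6 lay inside the range of the 4 libraries, and the difference between the group means was -12.9. The SD describes single libraries and not a group mean, so it cannot show whether this difference lies within error. The single libraries of the 7 were not recovered for DUSP7, and no test was made. Leaving out each of the 4 libraries gave log2 ratios of -0.44 to -0.14.

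**Figure D3:**
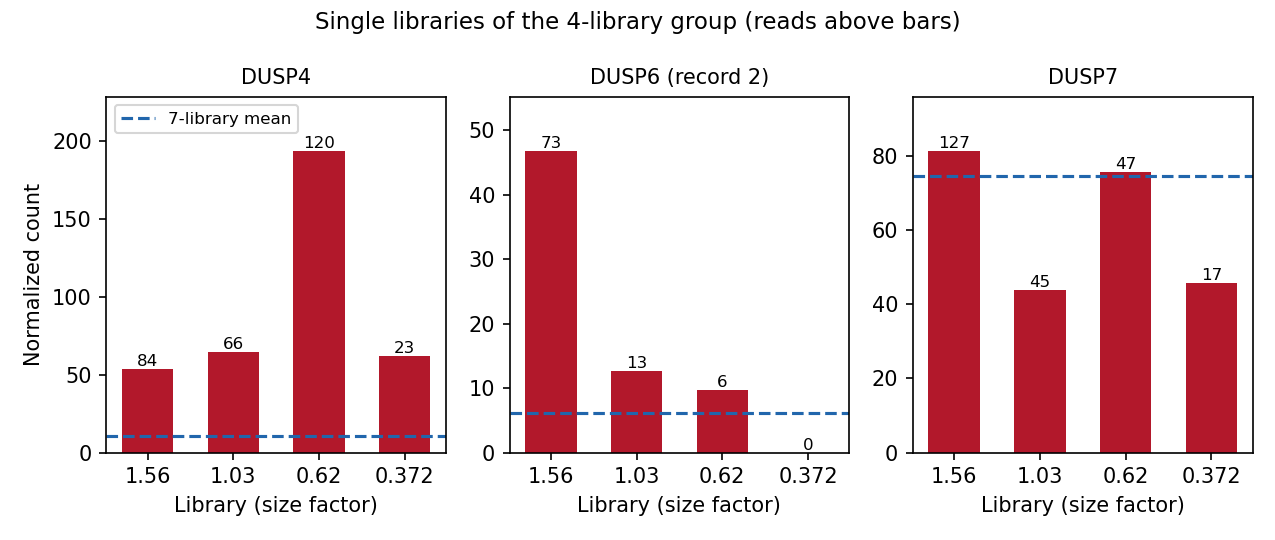
Normalized counts of DUSP4, the second record of DUSP6 and DUSP7 in each library of the 4-library group, named by size factor (bars from 0, reads above each bar), with the 7-library mean as a dashed blue line. All 4 bars of DUSP4 exceed the 7-library mean of 10.4, the library with the size factor 1.56 carries the DUSP6 record, and the bars of DUSP7 lie on both sides of 74.6.

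The other dual specificity phosphatases, called atypical because they lack the kinase-binding domain of the MAP kinase phosphatases, had 9 of 16 genes with a row. The median of their log2 ratios was 0.52, with 3 genes 2-fold or more higher in the 4-library mean and 0 in the 7-library mean. Over all rows these shares were 23.9% and 10.4%. The 3 genes were DUSP3, DUSP18 and DUSP28, all weakly expressed, and their reads were recovered in all 11 libraries. DUSP3, which acts on ERK and JNK, had 9, 1, 6 and 1 reads in the 4 libraries (size factors 1.56, 1.03, 0.620 and 0.372) and 10 reads over the 7 libraries, and the groups overlapped (exact permutation p = 0.067, adjusted p = 0.40). All 6 reads of DUSP18 in the 4-library group lay in the library with the size factor 0.620, and all 4 reads of the 7-library group lay in the library with the size factor 1.73 (exact permutation p = 0.73). DUSP28 had 17 reads over the 4 libraries and 20 over the 7 (exact permutation p = 0.079, adjusted p = 0.43). Among the atypical genes with a mean of at least 10, the log2 ratio ranged from -0.70 for STYXL1 to 0.62 for DUSP14, all below DUSP1, DUSP6 and DUSP16.

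Of 8 other phosphatases that act on MAP kinases, 4 had a row and 1 was past 2-fold. PPP2CA, a catalytic subunit of protein phosphatase 2A, had a 4-library mean of 8224 and a 7-library mean of 2760, a log2 ratio of 1.58. PPP2CB, its close relative, had means of 604 and 610, a log2 ratio of -0.01. The copies share much of their coding sequence, so a division of reads between them is uncertain.

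The listed MAP kinases, not all of which are known here as targets of the 7 phosphatases, did not share one direction. Of the 13 MAP kinases considered, 9 had a row, with a median log2 ratio of 0.43, 1 gene 2-fold or more higher in the 4-library mean and 1 in the 7-library mean. MAPK14, the p38 alpha kinase, had means of 282 and 758 (log2 ratio -1.43). MAPK6, an atypical MAP kinase, had means of 10847 and 1099 (log2 ratio 3.30). The p38 kinase MAPK14 had the lower 4-library mean, beside the higher 4-library mean of DUSP10, a phosphatase of p38 and JNK. The p38 kinases MAPK12 and MAPK13 went the other way, with log2 ratios of 0.43 and 0.56. So did the JNK kinases MAPK8 and MAPK9, at 0.55 and 0.40. A relation of these ratios to DUSP10 was not tested.

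Upstream, 5 of 7 MAP kinase kinases had a row, with a median log2 ratio of 0.06, 0 past 2-fold higher in the 4-library mean and 2 in the 7-library mean. MAP2K3, an activator of p38, had means of 135 and 68.9 (log2 ratio 0.97), and MAP2K2, an activator of ERK, had means of 90.5 and 226 (log2 ratio -1.32). The other gene past 2-fold was MAP2K5, with 1 read over the 4 libraries and 5 reads over the 7.

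Of 22 MAP kinase kinase kinases, 12 had a row, with a median log2 ratio of -0.23, 1 gene higher in the 4-library mean and 2 in the 7-library mean. MAP3K8, which links Toll-like receptors to ERK, had means of 317 and 55.4, a log2 ratio of 2.51. MAP3K14, the kinase of the non-canonical NF-kB pathway, had means of 67.9 and 178 (log2 ratio -1.39), and MAP3K4 had 1 read over the 4 libraries and 8 over the 7. Among the 9 of 11 MAP kinase-activated kinases with a row, RPS6KA6 (means of 4.16 and 1.51) was the 1 gene past 2-fold higher in the 4-library mean and RPS6KA2 (means of 49.7 and 114) the 1 gene in the 7-library mean. MKNK2, a kinase of the cap-binding factor eIF4E, had the highest log2 ratio of this list among genes with a mean of at least 10, at 0.70.

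The other feedback inhibitors and the responsive transcription factors had higher median ratios than the kinases. Of 7 Sprouty and SPRED genes, which inhibit the route from receptors through RAS to ERK, 3 had a row and all 3 were 2-fold or more higher in the 4-library mean (median log2 ratio 1.79). This share was 23.9% over all rows and 12.3% over rows with a mean of at least 10, so such ratios were more frequent among low means. SPRY1 and SPRED2 had means over all libraries under 10. SPRY2 had means of 31.8 and 12.9 (log2 ratio 1.30), SPRED2 had means of 13.4 and 3.88 (log2 ratio 1.79), and SPRY1, averaged over its 2 records, had means of 6.92 and 0.696 (log2 ratio 3.31). Without the library with the size factor 1.56, SPRY2 had a log2 ratio of 0.94, under 2-fold. The SPRY1 records differed. The groups did not overlap in the first (exact permutation p = 0.00606, adjusted p = 0.23). In the second, all 15 reads of the 4-library group lay in the libraries with size factors 1.03 and 0.620 (exact permutation p = 0.22, adjusted p = 0.55). The reads of SPRED2 were recovered in all 11 libraries, with 37 reads over the 4 and 30 over the 7. Its normalized counts were 6.41, 10.7, 9.67 and 26.9 in the 4 libraries and 0 to 9.96 in the 7, so the groups overlapped (exact permutation p = 0.036, adjusted p = 0.35).

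Of 22 transcription factors that MAP kinases induce or phosphorylate, 15 had a row, 9 were 2-fold or more higher in the 4-library mean and 0 in the 7-library mean. Over all rows these shares were 23.9% and 10.4%. Of the 9, FOSL1 and EGR3 had means over all libraries under 10. The median log2 ratio of the 15 factors was 1.96. ATF3, an inducible factor of the stress response, had the highest log2 ratio among those with a mean of at least 10, at 3.47. Its 59, 22, 15 and 36 reads in the 4 libraries gave normalized counts of 37.8, 21.4, 24.2 and 96.8, against 0 to 11.1 in the 7 libraries. The groups did not overlap (exact permutation p = 0.00606, adjusted p = 0.23). ATF3 was named for its high ratio, and the limits for recovered reads admit higher means in the 4 libraries than in the 7. Its p is therefore no separate support for the ratio or for DUSP4. CREB1 was the lowest, with means of 54.0 and 93.0 (log2 ratio -0.79). Of the factors past 2-fold, FOS (log2 ratio 1.96), JUN (3.41) and EGR1 (2.97) are named as the best known and were chosen after their values had been seen. In the plot of the pathway by role, DUSP4 (3.17) lies below JUN and ATF3, DUSP1 lies below all 9 factors that were past 2-fold, and DUSP5 (3.75) lies above ATF3. The 1 factor with a higher log2 ratio than DUSP5 was FOSL1, named after its values had been seen, which rests on 12 reads over the 4 libraries and 1 read over the 7.

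**Figure D4:**
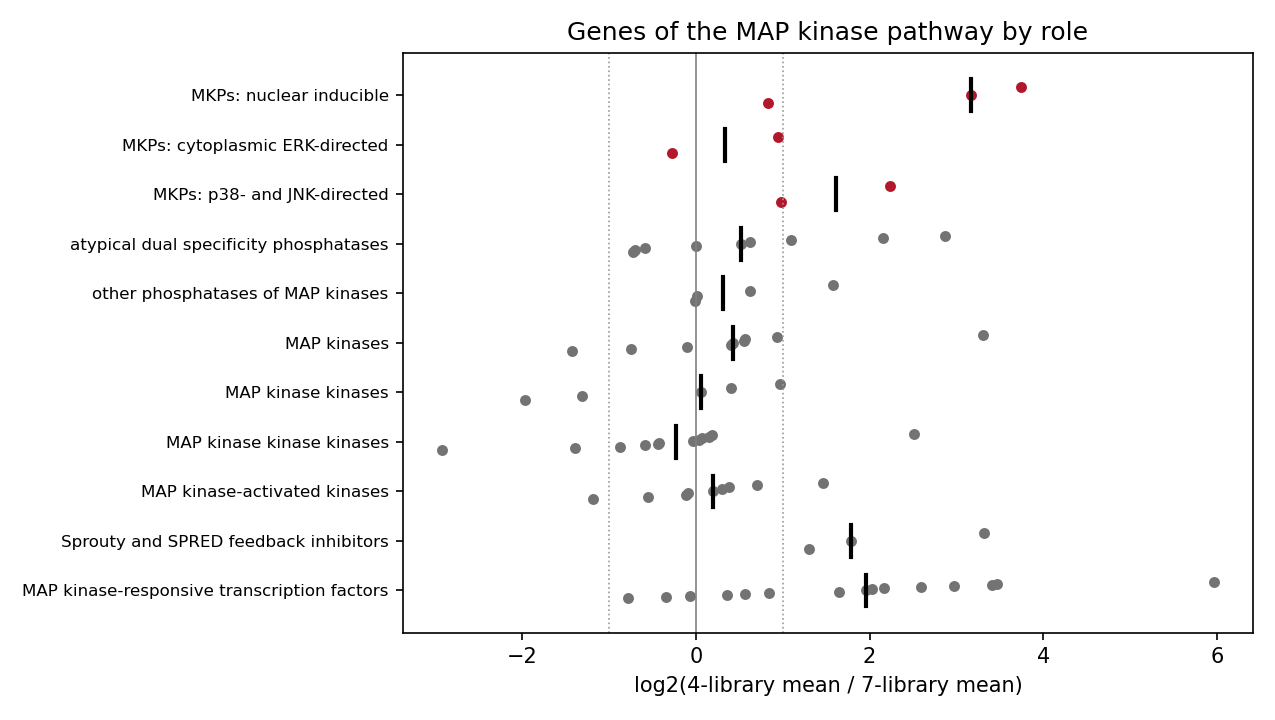
Log2 ratio (4-library over 7-library mean) for each gene with a row, by role in the MAP kinase pathway (MAP kinase phosphatases, MKPs, in red, other genes in grey, each list's median as a black bar, dotted lines at 2-fold). The medians of the nuclear phosphatases, the Sprouty and SPRED genes and the transcription factors are 3.17, 1.79 and 1.96, and the medians of the 4 kinase lists are -0.23 to 0.43.

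Markers of blood cell types moved with the groups, in a direction that is subject to the same conflict over which mean belongs to the red tide animals. Of 16 neutrophil markers, 10 had a row and 8 were 2-fold or more higher in the 7-library mean, with a summed level of 2879 in the 4-library means and 13076 in the 7-library means. Of 9 platelet markers, 5 had a row and 4 were 2-fold or more higher in the 4-library mean (summed levels of 10555 and 3410). Over all rows, 10.4% were 2-fold or more higher in the 7-library mean and 23.9% in the 4-library mean. The summed levels were 2284 and 2617 for 4 of 7 monocyte markers, 508 and 795 for 4 of 11 T cell markers, 809 and 853 for 4 of 9 B cell markers, 29.6 and 23.6 for 2 of 7 NK cell markers, and 182 and 486 for 2 of 6 erythroid markers. No marker with a row was at 0 in either mean. The part of these lists in the ratios of the MAP kinase phosphatases was not tested. In bulk samples, fewer cells of a type and less RNA per cell cannot be told apart.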

How the data were processed

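RNA-seq was performed on buffy coats from 4 red tide manatees and 7 controls. The authors trimmed the reads with Cutadapt, mapped them to TriManLat1.0 with Bowtie2, removed duplicates, counted uniquely mapped reads and compared the groups with DESeq. For the counting program, the sources used here give no name. The signal values of the deposited table are the authors' mean normalized counts (counts over size factors) for each group and for all 11 libraries. Its columns of fold changes, p-values and adjusted p-values, the authors' own comparison, were not used. There were 0 unused columns of single samples. The table gives no total counts, so depth is known only relatively, as size factors of 0.372 to 1.73. Exact permutation p-values compare the difference between the group means with the differences under every other assignment of these libraries. The paper describes a separate library for each sample, but nothing in the table tells which animal a recovered library came from.

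Records were matched to RefSeq symbols without their version (10080 rows, 65.9%; with it 1658). Records of a symbol were averaged. Size factors and whole reads were recovered from the lowest group means; where several combinations of reads gave a mean, all were kept and the largest p was taken. Single combinations were found for 9632 of 9634 4-library means up to 80 and 4459 of 4505 7-library means up to 6. Limits of 100 and 11 were added once the data were known, since no member lay within the first limits on both means. Recovery was tested on simulated means of up to 100 for the 4 libraries and up to 6 for the 7. The 7-library means of DUSP4 and of the second record of DUSP6 lie above that range, so their recovery was not tested. The two-sided exact permutation test was tested on simulated counts and not on recovered reads. Python 3.11.15, NumPy 2.4.6, pandas 2.3.3 and Numba 0.67.0 were used.

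In the list of MAP kinases, 1 gene is not reported here and was left out of the counts. The members and the gene lists were chosen with earlier results of these data known. All members with a row are named, and of each other list the genes with the highest and lowest log2 ratio at a mean of at least 10 and, where 3 or fewer passed 2-fold, those. For members with at least 20 reads and a single combination in all 11 libraries, similar genes were to be named; 0 members qualified. Alternatives concerned the fold threshold, a pseudocount of 1, centring, the filter on means, the choice of record, the scale of the test and single libraries.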

Additional observations from a re-analysis of the deposited data

Results flagged for a closer look

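In DUSP4, the library with the size factor 0.620 stood apart from the other 3 of the 4-library group: its normalized count was 193, beside 53.9 to 64.3 in the others. The gap to the nearest library was 0.926 of the range of the group, above Dixon's critical value for 4 samples. Chance passes that critical value in about 1 in 20 groups of normally distributed values, which these counts need not be. The DUSP6 record and DUSP7 did not pass it, with gaps of at most 0.730 and 0.152 of the range at either end. In DUSP4 each of the other 3 libraries also lay above each of the 7 libraries of the other group.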

How the results depend on the processing

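The count of MAP kinase phosphatases higher in the 4-library mean was 3 of 7 at 2-fold and stayed at 3 with a fold threshold of 3, with 1 added to both means, after centring and with members at a mean of at least 10 only. It was 6 with a fold threshold of 1.5, and 4 of 8 with records counted one by one, where the second record of DUSP6 was added. The count in the other direction was 0 under each of these settings. The median log2 ratio of 0.98 lay between 0.98 and 0.99 under its alternatives. No member changed sign. For single members with 1 added or after centring, all kept their side of 2-fold. Without single libraries of the 4, the second record of DUSP6 ranged from 0.27 to 1.90 and lost 2-fold without the library with the size factor 1.56; without single libraries of the 7, over all combinations, it stayed at 1.26 or more and DUSP4 at 2.94 or more. The exact permutation p of DUSP4 was 0.00606 also on the log2 scale, and 0.00952 to 0.0167 without single libraries; since the groups do not overlap, each is the smallest value its design allows, fixed in advance, and says nothing about stability. With the tolerance doubled, 136 combinations fitted the 7 libraries and the highest normalized count among them was still 52.5, under the 53.9 of the lowest of the 4. That of the second record of DUSP6 was 0.13 to 0.82 without single libraries. An adjustment over rows with a mean of at most 3.8 was not run, since 0 member records lie under it. With the version number, 0 of the 8 member records matched a symbol. No paired analysis was possible because the table lists no single samples and recovered libraries carry no replicate number. Single-library values were limited to low means, because more combinations of whole reads fit a higher mean. DUSP1, DUSP5, DUSP10, DUSP16 and the first record of DUSP6 therefore have no error.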
